A study of Mus musculus with 6 samples.

Results

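Endothelial cells line the blood vessels that run between muscle fibers, and 10 genes commonly used to mark these cells were followed in the muscle of *FLExDUX4* and wild-type mice. The genes were *Adgrf5*, *Pecam1*, *Cdh5*, *Kdr*, *Flt1*, *Tek*, *Tie1*, *Vwf*, *Cav1* and *Eng*, taken by symbol from the Ensembl mouse genes of the deposited table, which lists 52550 genes. All 10 were found once, and all 10 were among the 13396 genes that passed the filter on low counts. The set was chosen by the count totals of *Adgrf5* in the compared genotypes, which were already known to differ, so the differences between genotypes given here are descriptions and carry no test.

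RNA came from the quadriceps of male mice that were 13 weeks old by their labels, 3 *FLExDUX4* and 3 wild-type (WT) mice. The paper's methods instead name the triceps and a younger age for this experiment. *FLExDUX4* mice were hemizygous for an inverted human *DUX4* transgene in the Rosa26 locus, which is transcribed at a low, leaky level without a Cre driver, and WT mice lacked it. The RNA was sequenced with QuantSeq, which samples transcripts near their poly(A) tail, so that long and short transcripts give similar numbers of reads and the levels of different genes can be compared per transcript.

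The values used were 1 count total per genotype, summed by the authors over the mice. The deposited table also holds 6 columns of counts per replicate, but their names are numbers that no sample label ties to a genotype, so they were not used. Genes received 13110125 counts in the *FLExDUX4* total and 18367364 in the WT total, and added spike-in RNAs took 1.65% and 1.40% of all counts. Because no value of a single mouse was used, the spread between mice is unknown here, and 1 mouse could account for a difference. Levels are given as CPM, counts divided by the library total after TMM scaling, a method that sets the typical gene to no difference. Differences are log2 ratios of *FLExDUX4* to wild-type under this scaling. Scaling to the spike-ins instead lowered the ratio of every gene by 0.276, and the values of members that this carried across 0 or past a limit are given with them. Each ratio has a 95% interval that covers counting error only. The human transgene was not analysed here, so the genotype labels were not checked against it. The 6 muscle fiber markers, among them *Acta1*, *Myh4*, *Tnnt3* and *Ckm*, summed to 111256 CPM in *FLExDUX4* and 111439 CPM in WT mice, so the defining genes of muscle fibers were abundant in both groups.

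Endothelial cells sense growth factors through receptor tyrosine kinases. VEGF acts through KDR (VEGFR2), the main signaling receptor, and binds tightly to FLT1 (VEGFR1), which also exists as a soluble decoy. Angiopoietins act through TEK (TIE2), with TIE1 as its partner. PECAM1 and VE-cadherin (CDH5) hold neighboring endothelial cells together, caveolin-1 (CAV1) shapes membrane pits, endoglin (ENG) is a coreceptor for BMP and TGF-beta ligands, and von Willebrand factor (VWF) binds platelets. ADGRF5 (GPR116) is an adhesion G protein-coupled receptor of endothelial and lung epithelial cells.

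Many endothelial genes are controlled by ETS transcription factors, which bind the core letters GGAA, and the promoters of 3 abundant members are shown for this reason. They were picked with their ratios known, and no relation between these letters and the ratios was tested. RefSeq promoters on GRCm38.p6 matched 7 of the 10 genes, with 9 windows of 250 bases before a start, and *Pecam1*, *Cdh5* and *Vwf* had no entry used here. Capitals mark GGAA, or TTCC where it lies on the other strand.
Adgrf5, chr17:43360181-43360430, plus strand: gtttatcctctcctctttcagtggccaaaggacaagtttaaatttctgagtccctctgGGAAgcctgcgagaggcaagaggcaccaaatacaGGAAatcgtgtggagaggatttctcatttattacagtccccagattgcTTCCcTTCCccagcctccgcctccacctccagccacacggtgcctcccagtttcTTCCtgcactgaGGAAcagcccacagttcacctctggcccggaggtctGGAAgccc
Kdr, chr5:75978456-75978705, minus strand: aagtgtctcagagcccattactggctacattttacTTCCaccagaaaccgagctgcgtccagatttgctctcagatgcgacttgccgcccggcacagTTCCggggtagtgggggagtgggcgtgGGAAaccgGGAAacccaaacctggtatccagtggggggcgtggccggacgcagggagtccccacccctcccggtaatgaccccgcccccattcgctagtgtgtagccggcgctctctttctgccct
Flt1, chr5:147726012-147726261, minus strand: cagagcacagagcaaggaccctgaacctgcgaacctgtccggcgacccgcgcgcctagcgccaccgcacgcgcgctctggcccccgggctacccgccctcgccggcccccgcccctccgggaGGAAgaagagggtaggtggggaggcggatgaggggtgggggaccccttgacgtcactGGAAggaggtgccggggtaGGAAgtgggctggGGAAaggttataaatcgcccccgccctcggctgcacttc

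The window before the first *Adgrf5* start held 7 of these cores on both strands together, and the window at its second start (chr17:43389216-43389465) held 5. *Kdr* and *Flt1* held 4 each. Among the other members, *Tie1* held 7, *Eng* 3, *Tek* 2, and the *Cav1* windows 1 and 3. The core is short and common. At least 1 was found in 93.4% of all 32851 promoter windows, whose median was 3, and 3.82% of all windows held 7 or more. The longer form CAGGAA, which contains the same core, was found on either strand in 4 of the 9 member windows, those of *Adgrf5*, *Tek* and *Tie1*, and in 25.7% of all windows. A GATA motif, GATAAG, was found in 0 of the 9 windows and in 6.55% of all windows.

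*Adgrf5* (ENSMUSG00000056492, chromosome 17 of GRCm38, 43360451 to 43459557, plus strand) had 1072 counts in *FLExDUX4* mice and 963 in WT mice. After scaling for the smaller *FLExDUX4* total, this was 82.6 CPM (Poisson interval 77.7 to 87.7) against 51.9 CPM (48.7 to 55.3). The log2 ratio was 0.67 (interval 0.54 to 0.80), or 1.59-fold higher, and the counting intervals of both totals lay apart. Under spike-in scaling the ratio was 0.40, below the 1.5-fold limit of 0.58 used for the counts here. By level, *Adgrf5* was the fifth of the 10 genes in WT mice and the third in *FLExDUX4* mice. Its ratio was higher than that of 88.8% of all genes compared, but the set was chosen by these same *Adgrf5* totals. Genes with few counts were among those compared. The nearest relatives of *Adgrf5*, *Adgrf1*, *Adgrf3* and *Adgrf4*, had 0 counts in both totals and *Adgrf2* had 1 count in all, so of this subfamily only *Adgrf5* was measurable at this depth. A total of 0 allows a level of up to 0.231 CPM in *FLExDUX4* and 0.162 CPM in WT mice. An snRNA gene annotated within *Adgrf5* had 0 counts.

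*Vwf* (chromosome 6, 125546774 to 125686679) was the other member past 1.5-fold on the higher side. It had 243 counts against 212, or 18.7 CPM (interval 16.4 to 21.2) against 11.4 CPM (9.94 to 13.1). The ratio was 0.71 (interval 0.44 to 0.99), and 0.44 under spike-in scaling. The point estimate of *Vwf* was above that of *Adgrf5*, but with fewer reads its interval was wider and covered that of *Adgrf5* entirely. Platelets and their precursors also make VWF and PECAM1. Of 5 platelet and megakaryocyte markers, *Pf4*, *Itga2b*, *Gp9*, *Ppbp* and *Gp1bb*, 2 passed the filter. The list summed to 17.2 CPM in *FLExDUX4* against 21.9 CPM in WT mice. Most of each sum came from *Pf4* alone, at 16.1 CPM in *FLExDUX4* and 20.1 CPM in WT mice (log2 ratio -0.32). *Itga2b* was sparse, at 14 and 25 counts, and its counting interval (-1.38 to 0.68) included 0. *Gp1bb* was at 0 in both totals, and *Gp9* and *Ppbp* were at 0 in *FLExDUX4* mice with 5 and 4 counts in WT mice. The part of platelets and their precursors in the *Vwf* values was not tested.

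**Figure D1:**
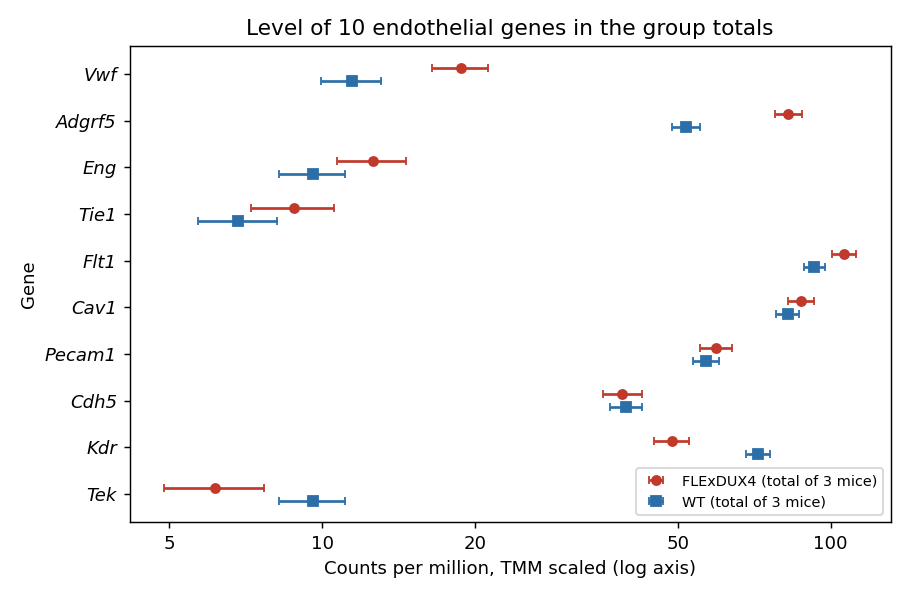
Level of each endothelial gene in CPM (log axis) in the *FLExDUX4* total (red circles) and the wild-type total (blue squares), each summed over 3 mice, with Poisson 95% intervals for counting error. *Adgrf5* stood at 82.6 against 51.9 CPM and *Vwf* at 18.7 against 11.4 CPM, while *Kdr* was lower, at 48.7 against 71.9 CPM.

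The VEGF receptors went opposite ways under TMM scaling. Under spike-in scaling *Kdr* was lower (-0.84), and *Flt1* was at -0.08 with an interval that included 0. *Kdr* (chromosome 5, 75932827 to 75978458, minus strand) had 632 counts in *FLExDUX4* mice and 1334 in WT mice, or 48.7 CPM (interval 45.0 to 52.7) against 71.9 CPM (68.1 to 75.8). Its ratio was -0.56 (interval -0.70 to -0.42), just inside the 1.5-fold limit. *Kdr* was the third highest of the 10 genes in WT mice and the fifth highest in *FLExDUX4* mice, exchanging places with *Adgrf5*. *Flt1* (chromosome 5, 147561604 to 147726011, minus strand) had 1380 counts against 1722, or 106 CPM (interval 101 to 112) against 92.8 CPM (88.5 to 97.3). The *Flt1* ratio was 0.20 (interval 0.09 to 0.30). Dividing *Kdr* by *Flt1* within each total removes the scaling between groups. There were 0.458 *Kdr* counts per *Flt1* count in *FLExDUX4* mice and 0.775 in WT mice, a log2 difference of -0.76 (exact interval -0.93 to -0.59). Counts per gene do not separate the full-length and soluble forms of FLT1.

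The angiopoietin receptor gene *Tek* and its partner *Tie1* also differed in direction by point estimate, with far fewer reads. *Tek* (chromosome 4, 94739289 to 94874976) had 80 counts against 178, or 6.17 CPM (interval 4.89 to 7.67) against 9.59 CPM (8.23 to 11.1), a ratio of -0.63 (interval -1.04 to -0.25). It was the only member past 1.5-fold on the lower side. *Tie1* (chromosome 4, 118471191 to 118490061, minus strand) had 114 counts against 127, or 8.79 CPM (interval 7.25 to 10.6) against 6.84 CPM (5.70 to 8.14). The *Tie1* ratio of 0.36 had an interval that included 0 (-0.02 to 0.74), and the ratio was 0.09 under spike-in scaling. In WT mice *Tek* counts exceeded *Tie1* counts, with 1.40 for each *Tie1* count, and in *FLExDUX4* mice they fell short, with 0.702. The log2 difference of these quotients was -0.998 (exact interval -1.55 to -0.45).

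Under TMM scaling the junction proteins and caveolin-1 differed by less than their counting error. *Pecam1* (chromosome 11, 106654217 to 106750628, minus strand) had 772 counts against 1056, or 59.5 CPM against 56.9 CPM, a ratio of 0.06 (interval -0.07 to 0.20). *Cdh5* (chromosome 8, 104101625 to 104144511) had 505 counts against 736, or 38.9 CPM against 39.7 CPM, a ratio of -0.03 (interval -0.19 to 0.14). *Cav1* (chromosome 6, 17306335 to 17341452), which muscle samples also hold in fat and fibroblasts, had 1137 counts against 1528, or 87.6 CPM against 82.3 CPM, a ratio of 0.09 (interval -0.02 to 0.20). Under spike-in scaling all 3 were lower, at -0.21 for *Pecam1*, -0.30 for *Cdh5* and -0.19 for *Cav1*. The intervals do not include the spread between mice.

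*Eng* (chromosome 2, 32646595 to 32682669) had 163 counts against 178, or 12.6 CPM (interval 10.7 to 14.6) against 9.59 CPM (8.23 to 11.1). The ratio was 0.39 (interval 0.07 to 0.70), and 0.11 under spike-in scaling, where its interval included 0. The annotated end of *Eng* overlaps that of *Fpgs*, which lies on the opposite strand and had 46 counts against 142. Whether the authors counted reads by strand is not given in the sources used here, so some reads could have been assigned to either gene.

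**Figure D2:**
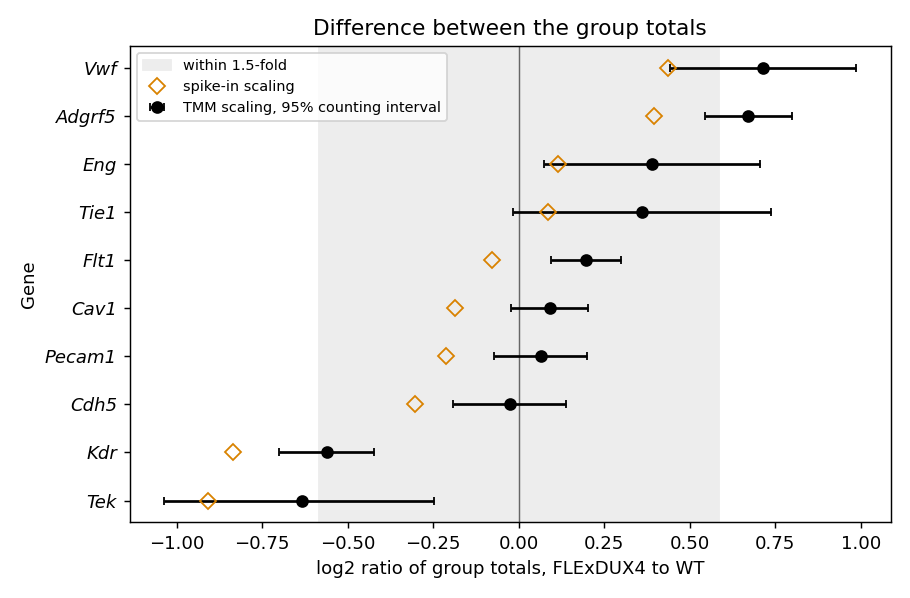
The log2 ratio of *FLExDUX4* to wild-type for each endothelial gene under TMM scaling (black, with 95% counting intervals) and under spike-in scaling (open diamonds), with the range within 1.5-fold shaded. *Adgrf5* (0.67) and *Vwf* (0.71) lay beyond the shading on the right and *Tek* (-0.63) on the left under TMM, and spike-in scaling moved every gene left by 0.276.

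Over the 10 genes, 7 were higher and 3 lower in *FLExDUX4* mice under TMM scaling. Their median ratio was 0.14, against 0.00 over all genes compared. Under spike-in scaling 4 were higher and 6 lower, and the median was -0.13 against -0.28 over all genes. With TMM scaling, at 1.5-fold or more, 2 members were higher, where 13.2% of all genes were, and 1 was lower, where 13.5% were. With spike-in scaling these were 0 and 2 members, and 7.82% and 23.7% of all genes. Under TMM scaling the counting interval lay above 0 for 4 members, *Adgrf5*, *Vwf*, *Flt1* and *Eng*, against 20.5% of all genes, and below 0 for 2, *Kdr* and *Tek*, against 20.6%. Under spike-in scaling it lay above 0 for 2, *Adgrf5* and *Vwf*, against 7.59% of all genes, and below 0 for 5, *Kdr*, *Tek*, *Cdh5*, *Pecam1* and *Cav1*, against 47.1%. Many of the genes past 1.5-fold had few counts. Among the 5944 genes with as many counts as the members, from 241 to 3102 over both totals, 3.77% were higher and 3.11% lower by that much under TMM scaling, and the counting interval lay above 0 for 21.8% and below 0 for 20.6%. The members were chosen with this contrast known, and nothing about them is inferred from these shares.

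**Figure D3:**
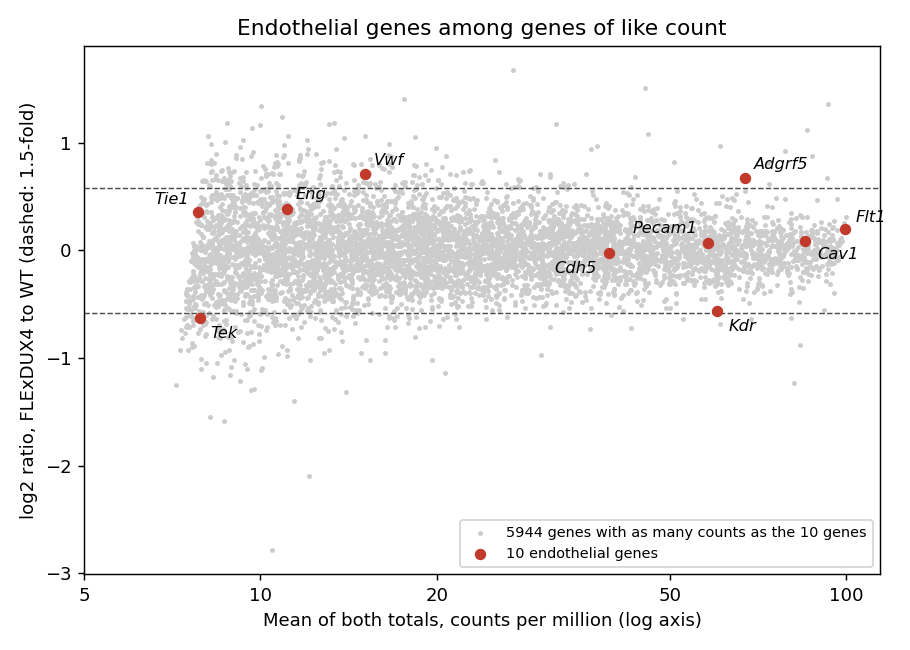
The log2 ratio of *FLExDUX4* to wild-type against the mean level in CPM (log axis) for the 5944 genes with 241 to 3102 counts over both totals (grey) and the 10 endothelial genes (red), with dashed lines at 1.5-fold. *Adgrf5* (0.67) and *Vwf* (0.71) lay above the upper line, *Tek* (-0.63) below the lower line with *Kdr* (-0.56) just inside it, and *Pecam1*, *Cdh5* and *Cav1* near 0.

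Ordered by ratio, the members ran from *Tek* (-0.63) and *Kdr* (-0.56) through *Cdh5*, *Pecam1*, *Cav1*, *Flt1*, *Tie1* and *Eng* to *Adgrf5* (0.67) and *Vwf* (0.71). The intervals of neighbors in this order overlapped, except between *Kdr* and *Cdh5*. By level, *Flt1* and *Cav1* were the highest members in both groups, and *Tek*, *Tie1* and *Eng* were among the lowest, at 6.17 to 12.6 CPM. Among neighbors in the order of levels in WT mice, the counting intervals overlapped for *Pecam1* and *Adgrf5*, for *Vwf* and *Tek*, and for *Tek* and *Eng*, which had equal counts. In *FLExDUX4* mice they overlapped for *Cav1* and *Adgrf5* and for *Tie1* and *Tek*. All other neighbors lay apart by counting error.

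Summed over the 10 genes, the level was 470.0 CPM in *FLExDUX4* and 432.9 CPM in WT mice, a log2 ratio of 0.12 (interval 0.07 to 0.17) under TMM scaling and -0.16 (-0.21 to -0.11) under spike-in scaling. Without *Adgrf5*, the other 9 genes summed to 387 CPM against 381.0 CPM, a ratio of 0.02 (interval -0.03 to 0.08) under TMM scaling and -0.25 (-0.30 to -0.20) under spike-in scaling. *Adgrf5* made up 17.6% of the members' counts in *FLExDUX4* mice and 12.0% in WT mice, while the share of *Kdr* was 10.4% against 16.6%. In RNA from whole muscle, a different number of endothelial cells and a different amount of RNA per cell cannot be told apart, in either direction.

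Setting *Adgrf5* against the other members gave a comparison that no scaling between groups can move. *Adgrf5* was known to differ when the set was chosen, so this comparison is a description. Its intervals cover counting error only, not the spread between mice. *FLExDUX4* mice had 0.213 *Adgrf5* counts for each count on the other 9 genes and WT mice had 0.136, a log2 difference of 0.65 (exact interval 0.51 to 0.78). Relative to single genes, *Adgrf5* was higher by 1.31 against *Tek* (interval 0.90 to 1.73), 1.23 against *Kdr* (1.04 to 1.42), 0.70 against *Cdh5* (0.49 to 0.91) and 0.61 against *Pecam1* (0.42 to 0.79). Against *Cav1* the difference was 0.58 (0.41 to 0.75) and against *Flt1* it was 0.47 (0.31 to 0.64). The intervals included 0 against *Tie1* (-0.09 to 0.71), *Eng* (-0.06 to 0.62) and *Vwf* (-0.34 to 0.26).

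**Figure D4:**
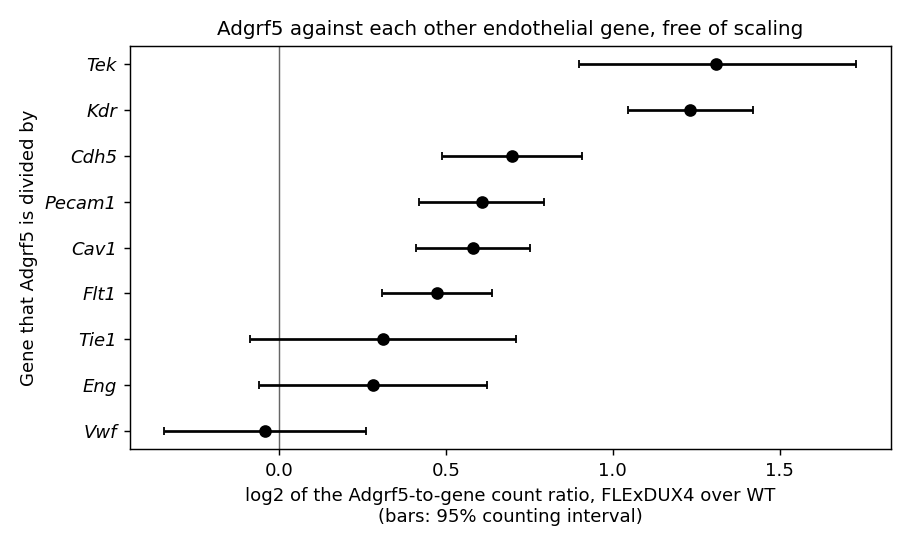
The log2 of the *Adgrf5* count divided by the count of each other endothelial gene, *FLExDUX4* over wild-type, with exact 95% intervals for counting error. The intervals lay above 0 for *Tek*, *Kdr*, *Cdh5*, *Pecam1*, *Cav1* and *Flt1*, and included 0 for *Tie1*, *Eng* and *Vwf*.

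Other genes of the vessel wall went both ways. In the lists that follow, ratios are under TMM scaling, and genes named as past 1.5-fold with few counts were picked out after their values were seen. Of the 138 genes kept from these lists and those of other cell types, 23 were higher and 12 lower past 1.5-fold, where 13.2% and 13.5% of all genes were. Under spike-in scaling 8 were higher and 28 lower, where 7.82% and 23.7% of all genes were. The counts for single lists are descriptions beside these shares and set no list apart. The counting interval included 0 for 6 of the genes past 1.5-fold, *Vegfc*, *Smad6*, *Adgra2*, *Adgre1*, *Cd68* and *Lep*. Under TMM scaling the 12 lower genes became 9 with at least 10 counts in each total, without *Tal1*, *Adgrl3* and *Vegfc*. Of 18 further pan-endothelial markers, 4 were higher by at least 1.5-fold, *Esam*, *Plvap*, *Robo4* and *Ecscr*, and 2 were lower, *Cldn5* and *Nos3*, which encodes endothelial nitric oxide synthase. Their median was 0.09. The most abundant, *Ptprb*, which encodes a phosphatase that acts on TEK, had a ratio of 0.09 (interval -0.04 to 0.22), *S1pr1* of 0.31 (0.11 to 0.51), *Cd34* of -0.30 (-0.50 to -0.11) and *Tspan7* of -0.46 (-0.64 to -0.28). *Cldn5*, a tight junction gene, had 17 counts against 63 and a ratio of -1.34 (-2.24 to -0.58). Of 12 transcription factors used by endothelial cells, 3 were higher past 1.5-fold, *Sox18*, *Sox17* and *Erg*, and 2 were lower, *Klf2* and *Tal1*. *Tal1* had 1 count against 36, so it passed the filter only through its WT count. The median was 0.15. *Sox18* had 199 counts against 120 and *Sox17* 173 against 112, ratios of 1.24 (interval 0.91 to 1.59) and 1.14. *Epas1*, which encodes the hypoxia factor HIF-2 alpha, had a ratio of 0.20 (interval 0.08 to 0.32). *Klf2*, a factor induced by blood flow, had 534 counts against 1188, which gave a ratio of -0.64 (-0.79 to -0.49). *Klf4*, a relative of *Klf2*, had a ratio of -0.48 (-0.67 to -0.30), and *Mef2c* of -0.12 (-0.15 to -0.09). Both are also expressed outside the endothelium. Summed over the list, which *Mef2c* dominates, the ratio was -0.11, opposite in sign to the median.

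Ligands and coreceptors of the members were compared as well. Of 9 such genes, *Vegfd* and *Angpt2* were higher past 1.5-fold, *Vegfc* (5 counts against 13) was lower, and the median was 0.16. *Vegfa*, the ligand of both VEGF receptors, had 1249 counts against 2117, which gave a ratio of -0.24 (interval -0.35 to -0.14). *Vegfb*, which binds FLT1, had a ratio of 0.04 (-0.08 to 0.16), and *Nrp1*, a VEGF coreceptor, of -0.30 (-0.46 to -0.14). *Angpt1*, the activating ligand of TEK, had a ratio of 0.19 (-0.11 to 0.49). The summed ratio of the list was -0.10, opposite in sign to its median. Of 10 genes kept from the endoglin pathway, *Acvrl1*, which encodes the receptor ALK1, and the inhibitor *Smad7* were higher past 1.5-fold. The inhibitor *Smad6* was lower, with 24 counts against 56, and the median was 0.30. The BMP targets *Id1* and *Id3* had ratios of 0.32 (0.11 to 0.53) and 0.37 (0.18 to 0.55), the signal carrier *Smad5* of 0.08 (-0.09 to 0.25), and the receptor *Bmpr2* of -0.26 (-0.40 to -0.13).

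None of 7 caveola genes other than *Cav1* passed 1.5-fold in either direction, and their median was -0.08. The structural partner *Cavin1* had a ratio of -0.19 (interval -0.28 to -0.10), *Cavin2* of 0.06 (-0.07 to 0.19), *Cavin4* of 0.04 (-0.08 to 0.16) and the muscle form *Cav3* of -0.07 (-0.23 to 0.08). Of 20 other adhesion G protein-coupled receptors, 11 were kept, with a median of -0.04. Past 1.5-fold, *Adgrg1* and *Adgra2* (18 counts against 13, interval -0.12 to 2.14) were higher. *Adgrb3*, *Adgre1* (24 counts against 55, interval -1.44 to 0.04) and *Adgrl3* (2 counts against 16) were lower. *Adgrg1* had a ratio of 0.78 (0.45 to 1.11), and *Adgrb3*, with 15 counts against 103, of -2.22 (-3.15 to -1.47). *Adgrl1* had a ratio of -0.27 (-0.45 to -0.09), *Adgrl2* of -0.10 (-0.46 to 0.25) and *Adgre5* of -0.03 (-0.29 to 0.22). Each of these receptors had at most 388 counts in *FLExDUX4* mice, against 1072 for *Adgrf5*.

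By vessel type, the 8 arterial genes kept had a median of 0.14, with 4 higher and 4 lower. *Jag1*, *Dll4* and *Notch4* were higher past 1.5-fold, and *Unc5b*, a netrin receptor, was lower. *Notch1* had a ratio of -0.06 (interval -0.36 to 0.23) and *Efnb2*, an ephrin of arteries, of -0.37 (-0.82 to 0.06). The 6 venous genes had a median of -0.01 and were 3 higher and 3 lower, with *Selp* (24 counts against 16) higher past 1.5-fold and the venous factor *Nr2f2* at 0.00 (interval -0.15 to 0.15). Of the others with the most counts, *Ephb4* had a ratio of 0.39 (-0.37 to 1.13), *Lrg1* of -0.01 (-0.22 to 0.19) and *Vcam1* of -0.42 (-1.13 to 0.24). The 6 lymphatic genes had a median of 0.04, with *Lyve1* and *Mmrn1* higher past 1.5-fold. *Pdpn* had a ratio of 0.01 (-0.33 to 0.34), *Reln* of -0.25 (-0.91 to 0.38) and *Prox1*, the lymphatic master factor, of -0.33 (-0.81 to 0.13). Among 10 genes of capillary transport, 1 was higher past 1.5-fold, *Rgcc*, with a ratio of 0.82 (interval 0.67 to 0.97), and the median was 0.10. The fatty acid carriers *Cd36* (0.24) and *Fabp4* (0.11) and the water channel *Aqp1* (-0.16) lay nearer to 0. Pericyte and smooth muscle genes, 10 in all, had a median of 0.09 and *Cnn1* (30 counts against 12) was higher past 1.5-fold. Their most abundant gene, the pericyte marker *Rgs5*, had a ratio of 0.06 with an interval that included 0, *Acta2* of 0.38 (0.22 to 0.54), *Pdgfrb* of 0.14 (-0.10 to 0.38) and *Abcc9* of -0.09 with an interval that included 0. Under spike-in scaling the median of all genes compared was itself -0.28. The medians of all these vascular lists were then below 0, except that of the endoglin pathway at 0.03. They ran from -0.35 for the caveola genes to -0.11 for the VEGF and angiopoietin genes.

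**Figure D5:**
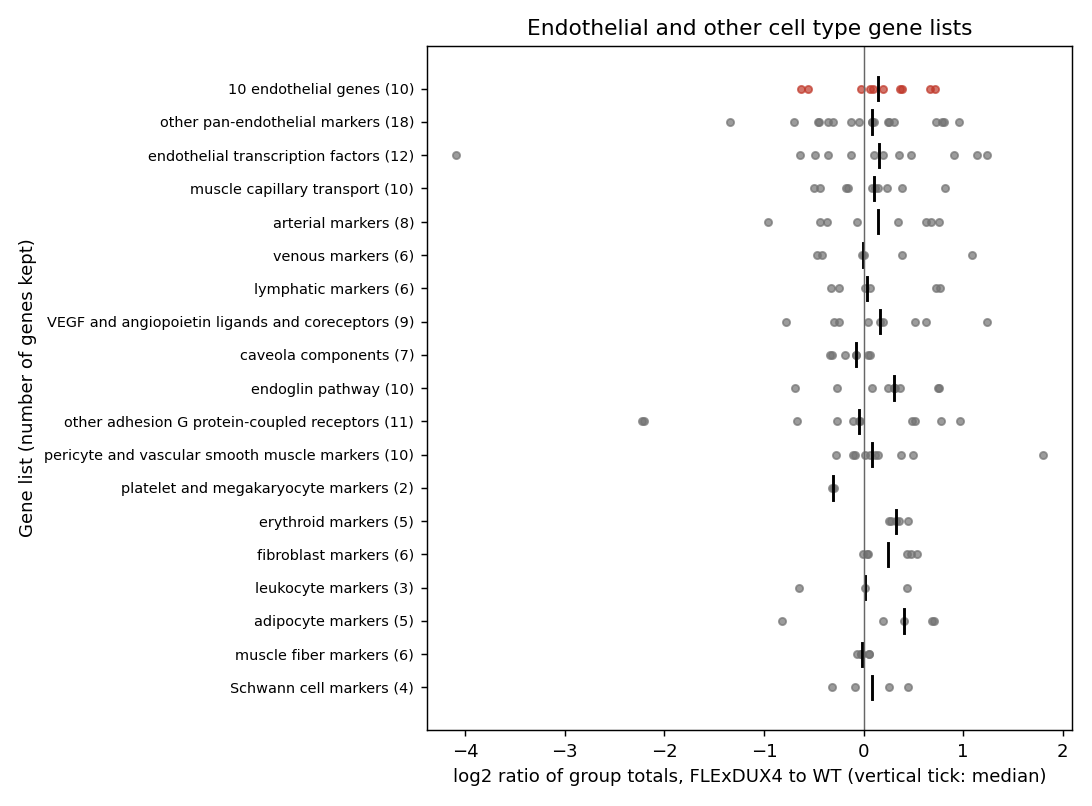
The log2 ratio of *FLExDUX4* to wild-type for each gene kept, by gene list, with the median as a black tick and the 10 endothelial genes in red. Every endothelial list spread to both sides of 0, and the 5 erythroid genes lay between 0.25 and 0.45 under TMM scaling, which spike-in scaling would shift by -0.276.

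Markers of other cells in the samples were read beside these results. The 5 erythroid genes, which mark blood left in the tissue, were all higher under TMM scaling by less than 1.5-fold, with a summed level of 1279 CPM against 1019.8 CPM. Fibroblast markers, 6 in all, summed to 1191 CPM against 1057 CPM with a median of 0.24, whereas under spike-in scaling their median was -0.03 and the ratio of their sums -0.10. The 5 adipocyte markers summed to 50.4 CPM against 36.3 CPM with a median of 0.41, and 0.13 under spike-in scaling. *Adipoq* and *Retn* were higher past 1.5-fold and *Lep* (12 counts against 31) was lower. Of 6 leukocyte markers, 3 were kept and the list summed to 22.6 CPM against 21.9 CPM, with *Cd79a* and *Ly6g* at 0 in both totals. The 4 Schwann cell markers summed to 88.5 CPM against 86.4 CPM. Under spike-in scaling the ratios of these sums were -0.23 for leukocyte and -0.24 for Schwann cell markers, and 0.05 for erythroid markers. Their part in the differences of the endothelial genes was not tested.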

How the data were processed

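RNA-seq of 3 *FLExDUX4* and 3 WT mice was analysed from the authors' deposited table. The authors trimmed reads with Cutadapt 1.16 and aligned them with STAR 2.5.3a to a GRCm38 reference that included the ERCC and SIRV spike-ins. The submitters' processing notes also list featureCounts 1.6.2 and DESeq2. The deposited table gives raw counts for 52649 features, of which 99 are spike-ins, as 1 total per genotype and in 6 replicate columns. The replicate columns are named by numbers that match no sample label, so they could not be assigned to genotypes by label and were not used. The authors' DESeq2 columns (mean, fold change, standard error, statistic and p-values) were not used.

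Genes were filtered with filterByExpr and scaling factors of both totals were found by TMM (edgeR 4.0.16 under R 4.3.3). Log2 ratios used a pseudocount of 0.5. The 95% intervals are Clopper-Pearson for ratios, exact conditional for quotients of genes and Poisson for levels (scipy 1.17.1), and cover counting error only. A count of 0 was taken to allow up to 3 counts. A quasi-likelihood test across mice had been planned and needs replicates with a known genotype, so no test was run. The script was tested on simulated counts.

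The members and the 18 other gene lists were chosen with earlier results of these data known. The rule for named genes took the members, the 4 with the most counts in each list, and those with a log2 ratio of at least 1 in size and at least 50 counts. Lists of other cell types are mostly given as sums and medians. Other genes past 1.5-fold, markers at 0, the gene pairs divided by each other and the range of 241 to 3102 counts were chosen after values were seen. Gene coordinates are from GENCODE M21 on GRCm38, whose gene starts equal the deposited positions for all 10 members.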

Additional observations from a re-analysis of the deposited data

How the results depend on the processing

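No paired analysis was possible because the deposited replicate columns carry numbers that no label ties to a genotype or replicate, and only totals per genotype were used. For the same reason the planned fit across mice, its DESeq2 alternative and leaving out each mouse were not run. RLE or upper quartile scaling, a pseudocount of 1, a minimum of 10 counts per total and keeping every gene left each member's ratio within its interval, 7 members higher, and 2 higher and 1 lower past 1.5-fold. Scaling by gene totals gave 2 lower past 1.5-fold, with *Kdr* added. Scaling to the spike-ins shifted each log2 ratio by -0.276 and the median of all genes to -0.28. It gave a member median of -0.13, 4 members higher and 6 lower, and 0 higher and 2 lower past 1.5-fold, with 7.82% and 23.7% of all genes in those directions. *Flt1* (-0.08), *Cav1* (-0.19) and *Pecam1* (-0.21) changed sign, and *Adgrf5* (0.40), *Vwf* (0.44), *Kdr* (-0.84), *Tek* (-0.91), *Cdh5* (-0.30), *Tie1* (0.09) and *Eng* (0.11) did not. Of the list genes kept, 23 higher and 12 lower became 8 and 28, and counting intervals above and below 0 went from 4 and 2 members to 2 and 5, a comparison added after seeing the data. What caused this shift was not tested. At a log2 ratio of at least 1, 0 members were higher and 0 lower, and 5 and 4 list genes. The difference of *Adgrf5* from *Pecam1*, *Cdh5*, *Kdr* and *Flt1* alone was 0.71, and that from the 9 without *Flt1* was 0.71. Depth limits *Tek*, *Tie1*, *Vwf* and *Eng*, whose intervals were 0.54 to 0.79 wide, against 0.21 to 0.33 for the others.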
